A study of Homo sapiens with 4 samples.

Results

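Chromatin accessibility was examined across the regulatory domain of MYC and PVT1 on human chromosome 8, a stretch of 2800 kb that begins 748 kb upstream of MYC (hg19, GRCh37). The deposited table held 139872 consensus peaks, and the 140 that lay wholly inside this interval were taken by position alone. Each peak is named by the distance of its midpoint from the annotated 5′ end of MYC at position 128747680. The 140 peaks were divided into 29 upstream of MYC, 3 within 1 kb of an annotated MYC start, 6 between there and PVT1, 31 in PVT1 (including its start), 24 between the end of PVT1 and 1 Mb downstream of MYC, and 47 in the gene-poor stretch beyond 1 Mb.

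The assay was ATAC-seq, which tags accessible DNA by transposition, and the cells were SEM, a B cell precursor leukemia line with a rearranged MLL gene. All cells expressed dCas9-KRAB (labelled dCas9-KRAB-BSD), a Cas9 without nuclease activity joined to a repressor domain. In 2 libraries the cells also carried sgFLT3-DE-1, a single guide directed at a distal FLT3 enhancer on chromosome 13 that HOXA9 binds, and in the other 2 they carried the non-target guide sgNT. The design asked how specific the targeting was and whether accessibility changed elsewhere in the genome, here at MYC.

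MYC encodes a transcription factor that pairs with MAX and drives genes of ribosome production, metabolism and cell division. PVT1 is a long non-coding RNA gene just downstream, and its body holds elements that contact or compete for MYC. In blood cells, MYC also depends on a cluster of far downstream enhancers, described best in the mouse, which is bound by hematopoietic transcription factors and is needed in leukemia with a rearranged MLL gene. None of these elements is a target of the guide used here.

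Total counts in peaks were 3670758 and 4831164 in the sgFLT3-DE-1 libraries, against 3321429 and 2683477 in the sgNT libraries. At the guide's target, 168.4 kb from the FLT3 start and in an intron of PAN3 (chromosome 13 from 28842815 to 28843351), the sgFLT3-DE-1 libraries held 214 and 338 counts and the sgNT libraries 378 and 350. Scaled to depth, that was 63.8 ± 5.43 CPM with sgFLT3-DE-1 and 122 ± 8.62 CPM with sgNT (SD, n = 2 each), and the difference of -0.92 on the log2 scale (SE 0.264) did not pass the edgeR threshold (adjusted p = 1.0). Of 14 marker genes of B cell precursors, 10 had a peak no more than 1 kb from a start, including PAX5 and EBF1, and CD79A, BLNK, CD24 and MME had none. Of T and NK cell markers 4 of 9 had one, of myeloid markers 5 of 8, and of erythroid markers 1 of 6. That 1 erythroid gene was HBB, whose 2 peaks were the only ones in the whole table past the threshold, with summed values of 520 and 217 CPM with sgFLT3-DE-1 and 56.0 and 41.5 CPM with sgNT. The study's notes speak of biological replicates, but separate cultures are not stated in the labels. Each p-value covers only the spread among these 4 libraries, and how much of that spread is technical is not known.

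The MYC start was among the most accessible sites of the domain. Values are given as normalised CPM, the counts of a peak scaled to a common library size with TMM factors, and per kb of peak where peaks of unlike length are set side by side. Of the 14 annotated MYC transcript starts, 4 lay inside the main peak at 0.60 kb (positions 128747933 to 128748618). It is 686 bp long and overlaps the beginning of exon 1 of the canonical transcript, in its 5′ UTR. This peak had 27.2 and 25.4 CPM in the sgFLT3-DE-1 libraries, against 30.7 and 36.0 CPM in the sgNT libraries. By CPM it ranked at the 82.5th percentile of 21028 peaks at protein-coding starts with sgFLT3-DE-1 and the 85.4th with sgNT. By CPM per kb it stood lower among them, at the 59.4th percentile with sgFLT3-DE-1 and the 66.5th with sgNT. Per kb of peak the shorter neighbour at -0.10 kb (128747436 to 128747723) was the most accessible of all 140 by the mean of the 4 libraries, with 74.5 ± 21.4 CPM per kb with sgFLT3-DE-1 and 81.2 ± 7.66 CPM per kb with sgNT (SD, n = 2 each). This peak holds 2 of the annotated starts, among them the farthest upstream one. The remaining peak, at 2.34 kb (128749938 to 128750106), lies in the first intron of the canonical transcript over the start of 3 others. All 3 also lie in an intron of CASC11, a non-coding RNA gene on the opposite strand, and ATAC-seq reads carry no strand by which the genes could be told apart.

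All 3 peaks at the MYC start had lower estimates with sgFLT3-DE-1, and none passed the test. The main peak had 97 and 127 counts with sgFLT3-DE-1, against 100 and 98 with sgNT. Its normalised values did not overlap between the guides, at 26.3 ± 1.25 CPM with sgFLT3-DE-1 and 33.4 ± 3.68 CPM with sgNT (SD, n = 2 each), and its log2 fold change was -0.32 (SE 0.254). The edgeR quasi-likelihood test gave it an adjusted p of 1.0 after Benjamini-Hochberg correction over all 82558 tested peaks (unadjusted 0.215). At 2.34 kb the values were 5.04 and 6.60 CPM with sgFLT3-DE-1 and 7.38 and 8.80 CPM with sgNT, again without overlap, and the log2 fold change was -0.43 (SE 0.376). The peak at -0.10 kb had 17.1 and 25.8 CPM with sgFLT3-DE-1 and 21.8 and 25.0 CPM with sgNT. These values overlapped, and its log2 fold change of -0.09 (SE 0.274) became 0.16 without sgFLT3-DE-1 replicate 1. Lower estimates were common at promoters as a class, since 62.7% of 18160 tested peaks at protein-coding starts lay below 0, with a median of -0.09. Both sgFLT3-DE-1 libraries lay below both sgNT libraries, without overlap, at 25.2% of these promoter peaks.

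Summed over the 3 peaks, the MYC start had 53.6 ± 6.02 CPM with sgFLT3-DE-1 and 64.8 ± 6.90 CPM with sgNT (SD, n = 2 each). The ratio was 0.827 of the group means, 0.823 for replicate 1 and 0.830 for replicate 2. An exact permutation test, two-sided, gave p = 0.33, the smallest that 2 libraries against 2 allow. Just upstream lay the peak at -1.24 kb (128746314 to 128746573), in an intron of CASC11 and within 1 kb of an alternative start of that gene. The 5′ end of the CASC11 gene model lies at 3.55 kb, on the other side of the MYC gene start. The peak at -1.24 kb had 11.2 and 20.0 CPM with sgFLT3-DE-1 and 16.0 and 25.0 CPM with sgNT. Its values overlapped between the guides, with a log2 fold change of -0.34 (SE 0.306), which was -0.0048 without sgFLT3-DE-1 replicate 1 and -0.84 without sgFLT3-DE-1 replicate 2.

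**Figure D1:**
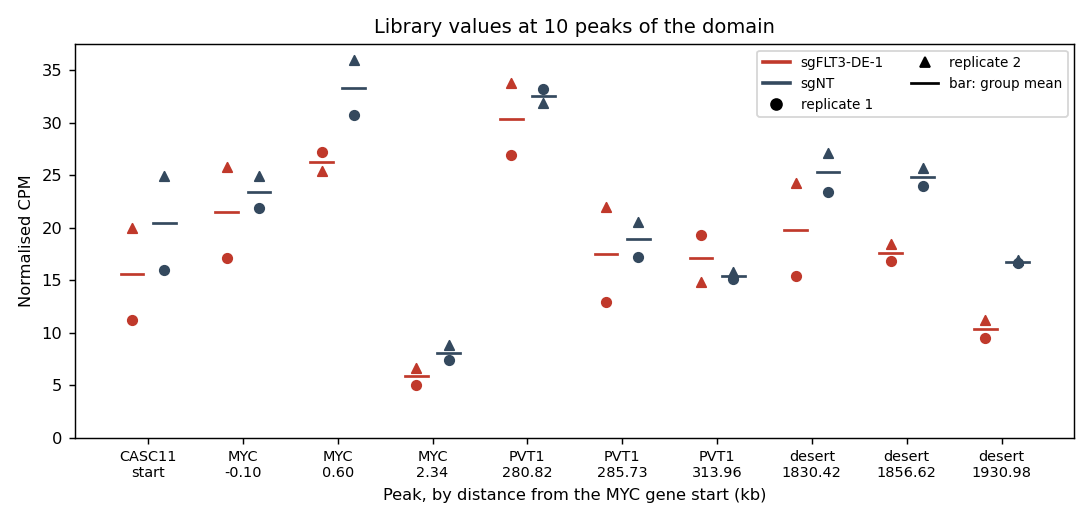
Normalised CPM (vertical axis, from 0) at 10 peaks of the domain, the last 3 from the stretch beyond 1 Mb (labelled desert), ordered by distance from the MYC gene start in kb, with sgFLT3-DE-1 in red left of sgNT in dark blue, replicate 1 as circles, replicate 2 as triangles and group means as bars. The peak labelled CASC11 start, at -1.24 kb, is near an alternative start of that gene. Both guides' values overlap there, at the MYC peak at -0.10 kb, at the 3 PVT1 peaks and at 1830.42 kb. They lie apart at the others, among them the main MYC peak, with 27.2 and 25.4 CPM with sgFLT3-DE-1 against 30.7 and 36.0 CPM with sgNT.

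The promoters most like the main MYC peak in their 4 library values were those of MAPK8, a stress-activated kinase, CREBRF, a regulator of CREB3 proteins, and SPCS2, a subunit of the signal peptidase (a peak shared with XRRA1). Their Euclidean distances from it were 0.101, 0.117 and 0.121 in log2 CPM over 4 libraries. The MAPK8 peak had 26.1 and 26.0 CPM with sgFLT3-DE-1 and 32.3 and 35.2 CPM with sgNT. Likeness over 4 libraries is a description of level and spread.

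PVT1 had a weakly accessible 5′ end and a strongly accessible middle. The 3 peaks within 1 kb of its 5′ end (59.10, 59.36 and 59.91 kb) held 4 to 12 counts with sgFLT3-DE-1 and 2 to 10 with sgNT, and none passed the filter on low counts, so none was tested. Among the same 21028 promoter peaks they stood at the 3.77th to 11.9th percentile in CPM with sgFLT3-DE-1 and at the 7.48th to 15.9th with sgNT. The highest values of the gene stood between 257.80 and 313.96 kb from MYC, inside the transcribed body. Some annotated PVT1 transcripts start inside the body, and the peak at 313.96 kb lay within 1 kb of such a start.

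The peak at 280.82 kb (129028290 to 129028706), in an intron of PVT1, had the highest CPM of all 140 peaks. The sgFLT3-DE-1 libraries held 96 and 169 counts there and the sgNT libraries 108 and 87, which is 26.9 and 33.8 CPM against 33.2 and 31.9 CPM. Its values overlapped between the guides, and the log2 fold change was -0.08 (SE 0.254). Alone among the 140 it carried both the letters of a CTCF core (AGGGGGC) and those of a HOX site (TTTATGG) in its central 200 bp. The neighbouring peak at 285.73 kb had 12.9 and 22.0 CPM with sgFLT3-DE-1 and 17.2 and 20.5 CPM with sgNT, a log2 fold change of -0.07 (SE 0.293). Directly beside MIR1207, a microRNA gene hosted by PVT1, the exonic peak at 313.96 kb (129061535 to 129061745) ranked next after the -0.10 kb peak per kb by the same mean, at 80.9 ± 15.2 CPM per kb with sgFLT3-DE-1 and 73.1 ± 2.38 CPM per kb with sgNT (SD, n = 2 each). Its log2 fold change was 0.16 (SE 0.287).

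One PVT1 peak had an estimate well below 0. The peak at 182.62 kb (128930209 to 128930390) held only 4 and 7 counts with sgFLT3-DE-1, against 10 and 10 with sgNT. Its 1.12 and 1.40 CPM with sgFLT3-DE-1 lay below the 3.07 and 3.67 CPM with sgNT. The edgeR log2 fold change was -1.35 (SE 0.697), with an adjusted p of 1.0. This peak passed the filter on low counts only through sgNT, so the filter itself favoured a lower estimate. Over all 31 peaks, PVT1 had 182 ± 23.7 CPM with sgFLT3-DE-1 and 179 ± 11.2 CPM with sgNT (SD, n = 2 each), a ratio of 1.02.

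**Figure D2:**
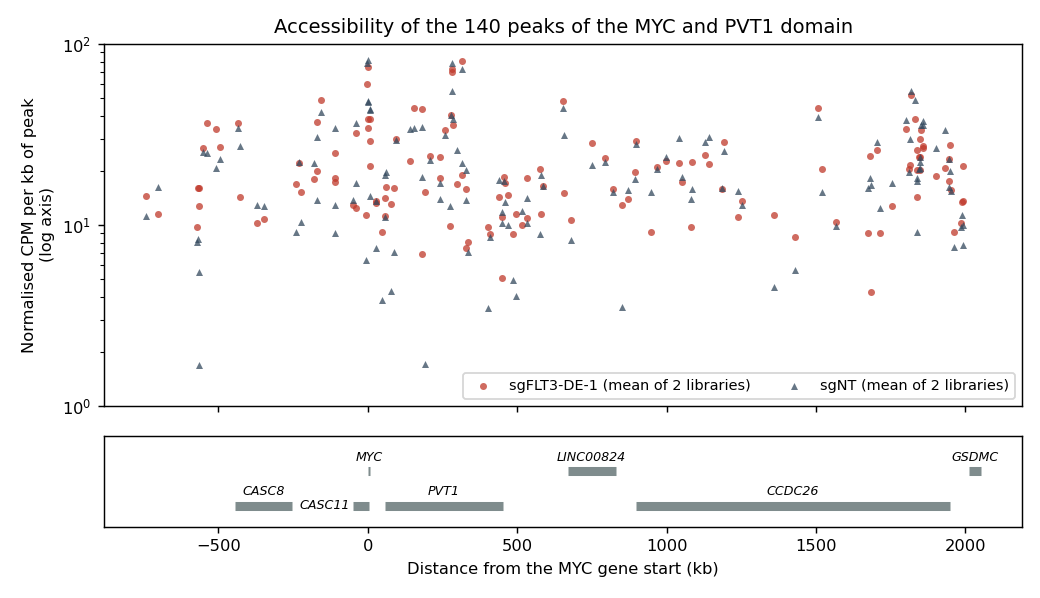
Mean normalised CPM per kb of peak (vertical log axis) of each of the 140 peaks against distance from the MYC gene start in kb, with sgFLT3-DE-1 as red circles and sgNT as dark triangles, above the annotated genes drawn to scale. The highest values stand at the MYC start (74.5 with sgFLT3-DE-1 and 81.2 with sgNT at -0.10 kb), near 281 and 314 kb in PVT1, and near 1819 kb at the 5′ side of CCDC26.

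The stretch beyond 1 Mb held no peak in a protein-coding gene, but it was not free of genes, since 41 of its 47 peaks overlapped CCDC26, a long non-coding RNA gene that runs toward MYC from the far end. Its peaks were clustered, with 15 between 1800 and 1900 kb and 11 between 1900 and 2000 kb from MYC, against 1 peak in each 100-kb window from 1300 to 1500 kb. The window from 1800 to 1900 kb had 122 ± 25.2 CPM with sgFLT3-DE-1 and 137 ± 13.8 CPM with sgNT (SD, n = 2 each), the highest sum of any window of the domain. Of the 26061 windows of the genome that held a peak, 1.93% had as many peaks, and 3.98% had as much CPM with sgNT, where the median window had 5 peaks and 23.2 CPM. As the window was picked for being the highest of the domain, a high rank was favoured by that choice. This stretch corresponds in position, far downstream of MYC, to where blood enhancers of MYC are known in the mouse, but no enhancer mark or contact was measured here.

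**Figure D3:**
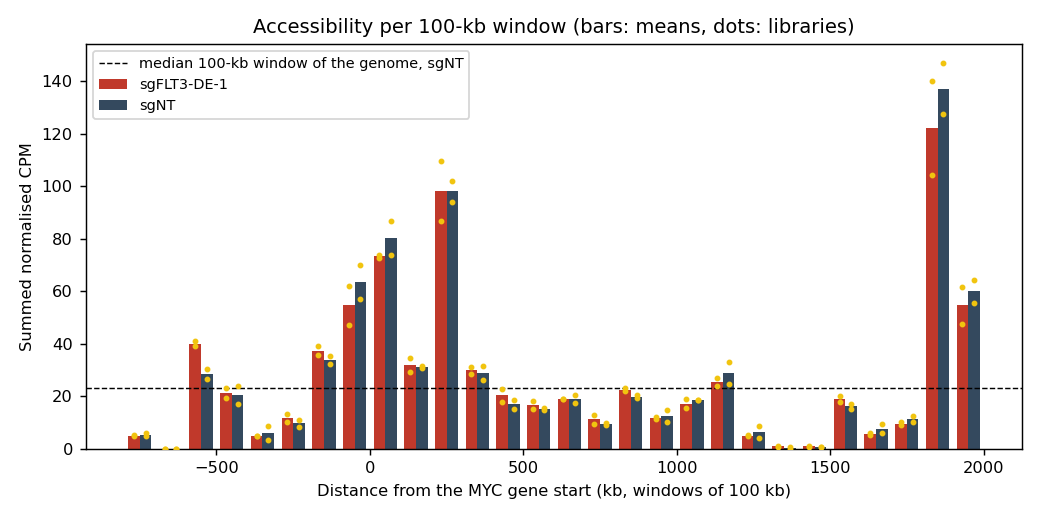
Summed normalised CPM (vertical axis) in windows of 100 kb by distance from the MYC gene start in kb, with mean bars for sgFLT3-DE-1 in red left of sgNT in dark blue, yellow dots for the libraries and a dashed line at the median genome window with sgNT (23.2 CPM). The tallest window, from 1800 to 1900 kb, reached 122 CPM with sgFLT3-DE-1 and 137 CPM with sgNT, above the 98.3 and 98.0 CPM of the PVT1 window from 200 to 300 kb.

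Within that cluster, several of the strongest peaks had lower values with sgFLT3-DE-1. Such separation was about as frequent beyond 1 Mb as elsewhere. Both sgFLT3-DE-1 libraries lay below both sgNT libraries at 5 of the 31 tested peaks there (16.1%), against 14.9% of all tested peaks. They lay above both at 4 (12.9%, against 12.8%). The peak at 1856.62 kb (130603971 to 130604635, an intron of CCDC26) had 60 and 92 counts with sgFLT3-DE-1, against 78 and 70 with sgNT, or 16.8 and 18.4 CPM against 24.0 and 25.7 CPM. The groups did not overlap, and edgeR gave -0.47 (SE 0.265) as log2 fold change with an adjusted p of 1.0. At 1930.98 kb (130678411 to 130678911, a CCDC26 exon) there were 34 and 56 counts with sgFLT3-DE-1, against 54 and 46 with sgNT, or 9.53 and 11.2 CPM against 16.6 and 16.9 CPM. With a log2 fold change of -0.66 (SE 0.298), this was the only one of the 85 tested peaks of the domain at an unadjusted p under 0.05 (0.0345, adjusted p = 1.0 by edgeR). Its ratio was 0.574 for replicate 1 and 0.664 for replicate 2.

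The other strong peaks of the cluster varied in sign and size. At 1830.42 kb (130577841 to 130578356) there were 15.4 and 24.2 CPM with sgFLT3-DE-1 and 23.4 and 27.2 CPM with sgNT, which overlap, with a log2 fold change of -0.31 (SE 0.276). That estimate was -0.043 without replicate 1 of sgFLT3-DE-1 and -0.70 without its replicate 2. At 1813.90 and 1900.79 kb the log2 fold changes were -0.44 (SE 0.299) and -0.49 (SE 0.314), without overlap between the guides, and the estimate at 1813.90 kb was -0.20 without replicate 1 of sgFLT3-DE-1 and -0.79 without its replicate 2. A pair of peaks named after their values were seen overlapped between the guides and were near or above 0. They were the peak at 1819.28 kb, with -0.046 (SE 0.295), and the peak at 1849.13 kb, with 37 and 77 counts with sgFLT3-DE-1, against 36 and 26 with sgNT, and 0.35 (SE 0.321). In contrast to the lower peaks, the peak at 1943.83 kb, near the CCDC26 start, had overlapping values and an estimate of 0.14 (SE 0.337), and 1839.51 kb had 0.69 (SE 0.517) on 7 to 30 counts. Summed over the 47 peaks the stretch had 260 ± 42.3 CPM with sgFLT3-DE-1 and 287 ± 24.0 CPM with sgNT (SD, n = 2 each). The ratio was 0.906, with 0.852 for replicate 1 and 0.954 for replicate 2, and the sums overlapped (exact permutation p = 0.67, two-sided). The 18 of 31 tested peaks below 0 (58.1%) compare with 48.1% of all tested peaks and 44.0% of those away from protein-coding starts.

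Upstream of MYC the largest estimates ran the other way, although none passed the test. This side holds PCAT1, CASC19 and CASC8, non-coding RNA genes named for prostate and other cancers, and the retrogene POU5F1B, whose start had no consensus peak within 1 kb. The peak at -508.49 kb (128239056 to 128239322), at the CASC19 start, had 35 and 41 counts in the sgFLT3-DE-1 libraries and 18 and 15 in the sgNT libraries. Its 9.81 and 8.21 CPM with sgFLT3-DE-1 lay above the 5.53 and 5.50 CPM with sgNT, and the log2 fold change was 0.71 (SE 0.374) with an edgeR adjusted p of 1.0. At -538.35 kb, in the same gene, the values were 13.5 and 10.0 CPM with sgFLT3-DE-1 and 9.84 and 6.24 CPM with sgNT (log2 fold change 0.53, SE 0.345). At -108.29 kb, in an intron of an unnamed non-coding RNA gene, the log2 fold change was 0.92 (SE 0.653) on 4 to 16 counts. That peak passed the filter on low counts only through sgFLT3-DE-1, so the filter itself favoured a higher estimate. At -432.46 and -40.36 kb the values overlapped, with log2 fold changes of 0.12 (SE 0.298) and -0.18 (SE 0.303). The 29 upstream peaks summed to 153 ± 5.47 CPM with sgFLT3-DE-1 and 144 ± 17.5 CPM with sgNT (SD, n = 2 each).

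Between MYC and PVT1 the tested peaks differed in sign, and past PVT1 most estimates were above 0. Of 2 peaks in exon 3 of MYC, in the 3′ UTR of the canonical transcript, the one at 6.67 kb had a log2 fold change of 0.56 (SE 0.457) and the one at 6.96 kb -0.55 (SE 0.425), opposite in sign at neighbouring peaks. The peak at 28.24 kb had 16 and 21 counts with sgFLT3-DE-1, against 12 and 3 with sgNT, for 0.82 (SE 0.545). Its estimate became 1.95 without replicate 1 of sgNT and 0.23 without replicate 2 of sgNT. Only through sgFLT3-DE-1 did this peak pass the filter on low counts, which favoured a higher estimate. The peak at 7.69 kb had -0.13 (SE 0.368). These 6 peaks summed to 25.9 ± 0.173 CPM with sgFLT3-DE-1 and 24.8 ± 3.33 CPM with sgNT (SD, n = 2 each). Past PVT1, 11 of 13 tested peaks had estimates above 0 and 2 below. That is 15.4% below, against 48.1% of all tested peaks and 44.0% of those away from protein-coding starts. The 24 peaks there summed to 94.4 ± 8.62 CPM with sgFLT3-DE-1 and 85.3 ± 2.83 CPM with sgNT (SD, n = 2 each). These sums did not overlap (ratio 1.11, exact permutation p = 0.33, two-sided and the smallest possible). The strongest peak there, at 652.93 kb, had 15.4 and 16.0 CPM with sgFLT3-DE-1 and 16.0 and 12.8 CPM with sgNT (log2 fold change 0.14, SE 0.289), and that at 968.50 kb had 0.05 (SE 0.382).

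Of the study's 229 HOXA9-bound regions, 1 lay in the domain. It overlapped the peak at 894.06 kb (129641462 to 129642028), between PVT1 and CCDC26, which had 39 and 57 counts with sgFLT3-DE-1, against 30 and 30 with sgNT. At 10.9 and 11.4 CPM with sgFLT3-DE-1 and 9.22 and 11.0 CPM with sgNT, its values overlapped, with a log2 fold change of 0.17 (SE 0.321).

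**Figure D4:**
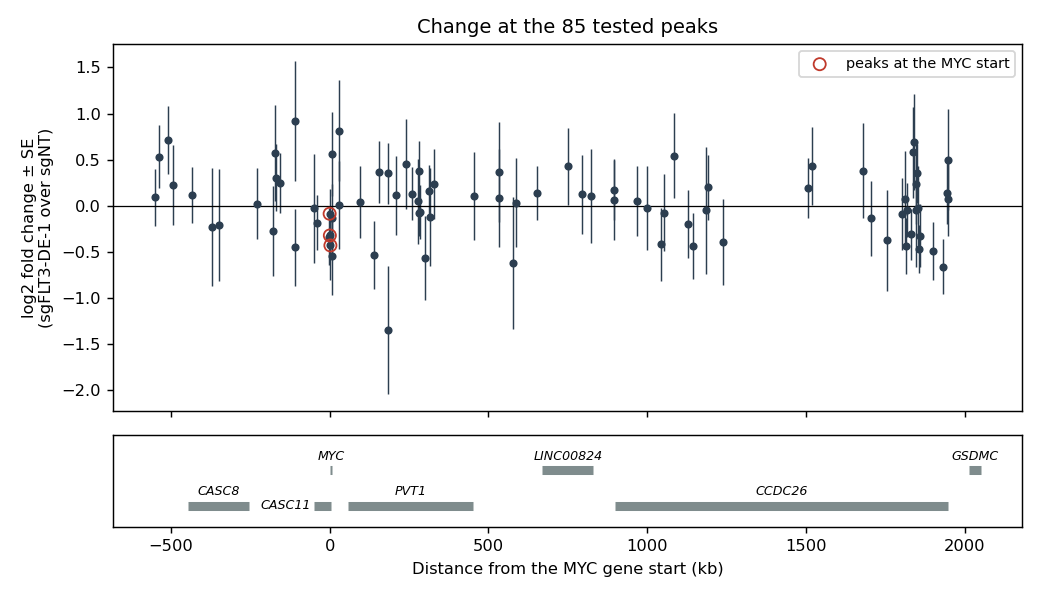
The log2 fold change of sgFLT3-DE-1 over sgNT (vertical axis, points with SE bars) for the 85 tested peaks against distance from the MYC gene start in kb, with the 3 MYC start peaks circled in red and annotated genes below. Estimates lie on both sides of 0, 38 below and 47 above, and the 3 circled peaks lie at -0.09, -0.32 and -0.43.

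Over the domain as a whole, 85 of 140 peaks (60.7%) passed the filter on low counts, against 59.0% of all peaks. None of the 85 passed an FDR of 0.05 in the edgeR fit, where 0.00242% of all 82558 tested peaks did. The guide's target on chromosome 13 did not pass this fit either. A peak that did not pass, here or in the gene lists, is therefore not shown to be unchanged. At an unadjusted p under 0.05 the edgeR fit had 1 of the 85, against 1.9% of all tested peaks, and this 1 was lower (1.07% of all were lower and 0.827% higher). DESeq2 and limma-voom also had 0 peaks of the domain past the threshold, which 1 and 3 peaks of the whole table passed. They had 0 and 1 of the 85 at an unadjusted p under 0.05, where the share of all peaks is not given. Estimates were below 0 for 38 of the 85 (44.7%), against 48.1% of all tested peaks and 44.0% of tested peaks away from protein-coding starts. The median log2 fold change was 0.05, against 0.01 over all tested peaks. Both sgFLT3-DE-1 libraries lay below both sgNT libraries at 12 of the 85 peaks, or 14.1%, against 14.9% of all tested peaks. They lay above both at 16, or 18.8%, against 12.8%. Within replicate 1 and within replicate 2 alike, sgFLT3-DE-1 was lower at 22 (25.9%, against 28.2%) and higher at 19 (22.4%, against 25.8%). The median SE of the 85 estimates was 0.41 on the log2 scale.

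The domain's share of all counts was 0.0689% (95% Wilson interval 0.0663 to 0.0717%) and 0.0859% (0.0833 to 0.0886%) with sgFLT3-DE-1, and 0.0723% (0.0695 to 0.0753%) and 0.0845% (0.0811 to 0.0880%) with sgNT. These intervals cover counting error only. The shares overlapped between the guides and lay higher in both libraries numbered 2. The libraries numbered 2 were above those numbered 1 with both guides at 41 of the 85 tested peaks (48.2%), against 32.7% of all tested peaks and 24.2% of those on chromosome 8. The reverse held at 8 of the 85, against 33.0% of all tested peaks. The labels do not say what the number marks. Summed over all 140 peaks, the domain had 770 ± 86.0 CPM with sgFLT3-DE-1 and 785 ± 65.7 CPM with sgNT (SD, n = 2 each), with a ratio of 0.960 for replicate 1 and 0.999 for replicate 2 (exact permutation p = 0.67, two-sided).

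**Figure D5:**
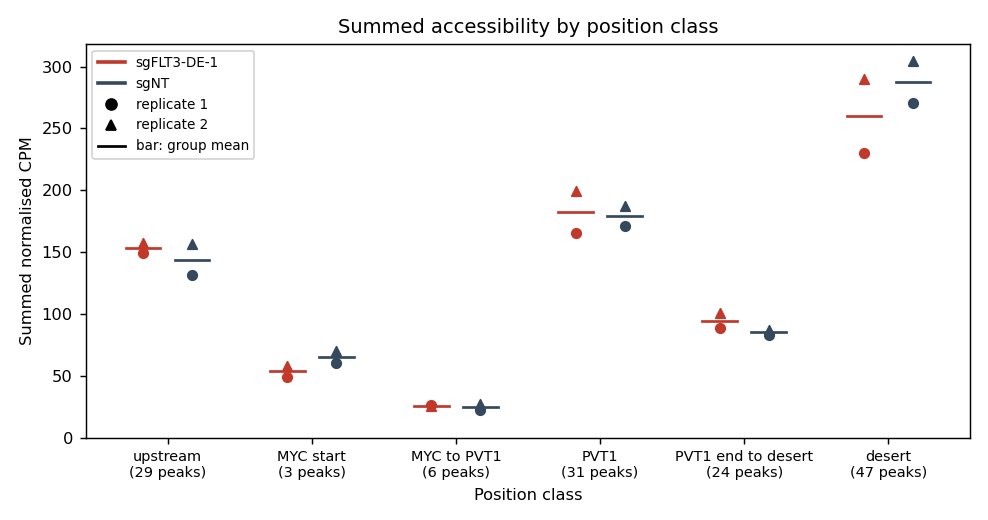
Summed normalised CPM (vertical axis, from 0) of the 6 position classes, with sgFLT3-DE-1 in red left of sgNT in dark blue, replicate 1 as circles, replicate 2 as triangles and group means as bars. The guides lie apart at the MYC start, with 53.6 against 64.8 CPM, and past PVT1, with 94.4 against 85.3 CPM, and overlap in the stretch beyond 1 Mb (labelled desert), with 260 against 287 CPM.

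The peaks of the domain resembled distal elements elsewhere in base composition. Their median GC content was 46.8%, against 48.0% over all peaks, while the 3 MYC start peaks had a median of 61.8%, against 65.4% at protein-coding starts. In the central 200 bp, with both strands searched and no motif contained in another, the RUNX letters TGTGGT stood in 44 of 140 peaks (31.4%, against 28.7% of all peaks) and the ETS letters AGGAAG in 55 (39.3%, against 33.3%). The CTCF core AGGGGGC was found in 2 peaks (1.43%, against 6.35%), namely those at 280.82 kb and at -1.24 kb. The E-box CACGTG, to which MYC and MAX themselves can bind, stood in 3 (2.14%, against 3.80%), the GATA letters AGATAA in 14 (10.0%, against 9.76%), the MEIS letters TGACAG in 19 (13.6%, against 15.9%) and the HOX letters TTTATGG in 1 (0.714%, against 2.60%). A match is a description of the letters and no evidence of binding.

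Genes that act with MYC were then examined at their own starts. Of 21 genes of the MYC network (partners, antagonists and regulators, without MYC), 19 had a promoter peak, and MLXIPL and TRRAP had none. Of 36 tested peaks, 25 had estimates below 0 (69.4%, against 62.7% of promoter peaks) and 11 above, with a median of -0.16 against -0.09 at all promoters. None passed the edgeR threshold (0.0110% of all promoter peaks did), and 5 had an unadjusted p under 0.05 in the edgeR fit, all lower. Of all promoter peaks, 2.82% did so in either direction and 2.53% with a lower estimate. These 5 are named here because of their small p. MNT and MXI1, which pair with MAX and oppose MYC, were among them. MNT averaged 7.47 ± 0.935 CPM with sgFLT3-DE-1 and 14.2 ± 0.360 CPM with sgNT at one peak (SD, n = 2 each), for a log2 fold change of -0.92 (SE 0.323), against -0.74 (SE 0.303) at another. MXI1 had 24 and 18 counts with sgFLT3-DE-1, against 41 and 25 with sgNT, for -1.10 (SE 0.383). FBXW7, which marks MYC for degradation, had -1.05 (SE 0.492) at a peak that passed the filter on low counts only through sgNT. The filter thus favoured a lower estimate at FBXW7. The remaining one, KAT5, an acetyltransferase that MYC recruits, had -0.92 (SE 0.437) and was named after its value was seen. With a correction for GC content the median of this list was -0.06.

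Known targets of MYC, mainly genes of ribosome production and the cell cycle, showed the same sign. Of 35 genes, 31 had a promoter peak, and BOP1, CCND2, DKC1 and MINA had none. Estimates were below 0 at 45 of 53 tested peaks (84.9%, against 62.7% of promoter peaks), with a median of -0.23. None passed the edgeR threshold, and 1, at RRP9, had an unadjusted p under 0.05. Summed CPM over these promoter peaks was 1010 and 1078 in the sgFLT3-DE-1 libraries, against 1235 and 1241 in the sgNT libraries, without overlap. No such sum over all promoters is given beside it. Peak by peak, both sgFLT3-DE-1 libraries lay below both sgNT libraries at 16 of the 53, against 25.2% of all tested promoter peaks. CDK4, a kinase of the G1 phase, averaged 28.0 ± 0.336 CPM with sgFLT3-DE-1 and 39.1 ± 3.88 CPM with sgNT (SD, n = 2 each), which gave -0.46 on the log2 scale (SE 0.251). RRP9, a component of the U3 particle that processes ribosomal RNA, had a log2 fold change of -0.56 (SE 0.263) at a peak shared with PARP3. NOP56 of the same class of particles had -1.12 (SE 0.607) on 5 to 12 counts. Its peak passed the filter on low counts only through sgNT, which favoured a lower estimate. WDR43, a ribosome production factor, had -0.55 (SE 0.296). The median was -0.11 without replicate 1 of sgFLT3-DE-1 and -0.36 without its replicate 2. With the GC correction it was -0.13, and the part of base composition in either list was not tested further.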

How the data were processed

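ATAC-seq counts came from 4 libraries of SEM cells, 2 per guide, grouped by title and treatment. The authors deposited raw counts per consensus peak (whole numbers, not normalized) and a matching peak list on hg19. Sources differ on the steps before: the protocol names cutadapt and Bowtie2, whereas BWA, Trim Galore 0.4.4, MACS2 2.1.1.20160309, SAMtools 1.2 and bedtools 2.24.0 stand in the submitters' processing notes. The fragments counted and any transposase shift are not given in the sources used here. Peaks were called in the libraries compared, so a peak open with either guide entered the list.

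All peaks were fitted with edgeR 4.0.16 (R 4.3.3): filterByExpr (minimum count 10, total 15) kept 82558, followed by TMM factors (0.972 and 1.03 with sgFLT3-DE-1, 0.979 and 1.02 with sgNT), the quasi-likelihood test with the guide as the only term, and Benjamini-Hochberg adjustment at 0.05. SE was derived as the estimate divided by the root of its F statistic. The procedure was tested on simulated data. Summed CPM was compared by an exact permutation test. Genes came from GENCODE 44 on GRCh37, and HOXA9-bound positions from the study's list, where 1 shared bp counted as overlap. Members, gene lists and tests were chosen with earlier results of these data known. Named peaks were those tested within 1 kb of a MYC start or of the 5′ end of PVT1, and the 3 of highest CPM per class. Also named were the 5 of smallest p in each direction, HOXA9-bound members and the 3 longest beyond 1 Mb. To these came the 3 promoters nearest the main MYC peak in log2 CPM (prior count 2) and 4 per gene list. Others were named after their values were seen. Alternatives were other scalings and filters, a GC correction by loess (span 0.3), the replicate number as a block, DESeq2 1.42.0, limma-voom (limma 3.58.1), other windows, and leaving out each library. Depth was 2683477 to 4831164 counts per library, with a median of 9 to 17 counts per peak. No sequence of the domain is printed.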

Additional observations from a re-analysis of the deposited data

How the results depend on the processing

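No peak of the domain passed the threshold under any setting run (other scalings and filters, GC correction, DESeq2, limma-voom, the replicate block or a left-out library), and the same held for both gene lists. The main MYC peak stayed below 0 throughout, from -0.39 without a count filter to -0.24 with the GC correction, and from -0.45 to -0.23 with each library left out. In those fits the guide with a single library was assumed to vary like the other guide.

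The replicate numbers are shared between the guides, but the labels do not say that they mark a batch, and with 2 pairs they were not taken to pair the libraries (correlation of same-numbered deviations 0.397 over 82558 peaks). With the replicate number as a block, the main MYC peak had -0.33 (adjusted p = 0.588 in edgeR), 8 of the 85 tested peaks had an unadjusted p under 0.05, and 57 lower and 17 higher peaks passed in the whole table, none in the domain. The block with GC correction gave 11 of 85. Without a count filter there were 8 of 140, with the GC correction 2, with DESeq2 0, and at a mean count of at least 50 0 of 12 (75% of those below 0). The matching share of all tested peaks is not given for these other settings. These counts therefore describe the settings and are no result about the domain.

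With each library left out, the median of the tested peaks ran from -0.10 to 0.20, the summed upstream peaks from -0.028 to 0.22 and those between MYC and PVT1 from -0.066 to 0.21, those in PVT1 from -0.11 to 0.15, those past PVT1 from 0.049 to 0.24, those beyond 1 Mb from -0.32 to 0.015 and the whole domain from -0.15 to 0.081 (log2). The MYC network median was -0.27 without a filter, -0.06 with the GC correction, alone or with the block, and -0.50 to -0.17 with a library left out. Among single peaks, 968.50 kb turned to -0.011 without a filter and to -0.0070 with the block and GC correction. The sign also turned with a library left out at -0.10 kb (-0.44 to 0.16), -432.46 kb (-0.057 to 0.26), 7.69 kb (-0.41 to 0.14), 280.82 kb (-0.27 to 0.066), 285.73 kb (-0.53 to 0.24), 313.96 kb (-0.044 to 0.34), 652.93 kb (-0.026 to 0.30), 968.50 kb (-0.12 to 0.20), 1839.51 kb (-0.0089 to 1.08) and 1943.83 kb (-0.25 to 0.58). The cause was not tested.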
